A study of Chrysanthemum x morifolium with 6 samples.

Results

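Lateral organ boundaries (LOB) domain proteins, called LBD proteins after the Arabidopsis numbering, are transcription factors found in plants and named for a shared DNA-binding domain. Class I holds most of the family and includes regulators of lateral root formation, organ boundaries and vascular growth. Class II, which runs from LBD37 to LBD42 in Arabidopsis, is tied to nitrogen and anthocyanin metabolism and to low oxygen. In roots, auxin acts through auxin response factors (ARFs) on LBD16 and LBD29, which take part in starting lateral roots, and nitrate raises LBD37, LBD38 and LBD39.

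The members were the sequence clusters of the deposited regulator table that carry the family name LOB or a Swiss-Prot name with "LOB domain-containing protein", and whose Swiss-Prot match comes from a flowering plant. They were 83 of 10744 clusters. The rule matched 87 clusters, and 4 without a Swiss-Prot match were left out. Of the 83, 69 are named LBD or LOB, under 18 LBD numbers and LOB itself, and all 69 matched Arabidopsis proteins. The other 14 carry the deposited family name LOB but other protein names, namely the plastid metalloprotease EGY1 (9 clusters), the histone methyltransferase SUVR3 (3) and F-box/LRR-repeat protein 13 (2). For those 14 the family label went against the protein name, so they are described last and apart. The Pfam entry of the LOB domain (PF03195) stood beside 0 of the 69, and beside 0 clusters of the whole regulator table, so it could not check the names. The NR protein descriptions named a LOB or lateral organ boundaries protein for 54 of the 69.

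RNA came from roots of 1-month-old seedlings of the chrysanthemum cultivar jinba, grown for 30 days, with 2 days of controlled watering that the description does not place in either group alone. Control plants were given purified water and salt plants were given 100 mM salt water, whose salt is not named. Roots were collected 24 h after treatment, with 3 biological replicates per group by the labels, giving 6 libraries. Whether a library pooled several plants is not stated.

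Depth, recovered from the deposited tables, ranged from 15.9 to 20.1 M fragments (M for mega) over the control libraries and from 12.8 to 16.1 M over the salt libraries. Root regulators were present at summed levels of 49.97 to 51.3 counts-per-million (CPM) in control and 24.4 to 27.4 in salt for SHORT-ROOT, and 20.7 to 23.2 and 12.1 to 14.5 CPM for SCARECROW. The AINTEGUMENTA-like (AIL) root markers stood the other way, at 23.5 to 25.2 CPM in control and 30.1 to 36.7 in salt. The names WEREWOLF and SHOOT MERISTEMLESS matched 0 clusters. Of the root markers, 1 of 21 tested was called higher and 5 lower, and of the shoot markers 3 of 8 were called higher and 2 lower. The leaf marker YABBY stayed under 0.84 CPM in every library, while GLK1 stood at 23.8 to 24.5 CPM in control and 15.8 to 17.2 in salt. GLK2 overlapped between groups, at 7.07 to 7.33 CPM in control and 5.97 to 8.85 in salt. The root markers SOMBRERO (2.07 to 2.61 CPM in control, 0.487 to 1.14 in salt) and BEARSKIN (0.762 to 1.47 and 0 to 0.142) were low. Clusters whose Swiss-Prot match is not a flowering plant took 3.99% to 4.03% of regulator counts in control, and 7.80%, 11.5% and 11.3% in salt 1 to 3. Their part in the results below was not tested, but their share enters the scaling of every library. Many of the calls and sums that this could move are therefore also given with plant-matched scaling. Its factors come from the regulator clusters with a flowering plant match alone, so changes under it are relative to those regulators. That scaling raised the median change over tested regulators by 0.51 on the log2 scale, and under it 2 root markers were called higher and 1 lower, and 3 shoot markers higher and 1 lower. Roots are a mixture of cell types, so fewer cells of a type and less RNA per cell cannot be told apart.

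Levels of the family spanned a wide range, and LBD41 stood above the rest. Compared per length of cluster, in FPKM (a deposited measure of fragments relative to cluster length and library depth), LBD41 Cluster-71316.165771 was the highest in both groups, at 245 ± 7.62 FPKM in control libraries against 118 ± 8.58 FPKM in salt libraries (SD, n = 3). It ranked 24th to 27th of all regulator clusters by FPKM in the control libraries and 91st to 99th in the salt libraries. Next in control came LBD38 Cluster-71316.129409 at 61.5 ± 4.07 FPKM, LBD41 Cluster-71316.151644 at 61.4 ± 1.27 and LBD39 Cluster-71316.195575 at 55.6 ± 6.35. These 3 neighbours overlapped in their single libraries. In salt the order below the first changed. LBD39 Cluster-71316.195575 stood at 83.2 ± 20.7 FPKM, LBD38 Cluster-71316.129409 at 62.6 ± 3.53, LBD39 Cluster-71316.129406 at 52.2 ± 5.48 and LBD41 Cluster-71316.151644 at 24.8 ± 4.95. The first 2 of these did not overlap in their single salt libraries, though their means differed by about the SD of the former. The length behind FPKM was the cluster length less 236 to 245 bases, which raises the values of short clusters most. The 2 LBD39 clusters have 405 and 440 bases, against 954 for LBD41 Cluster-71316.151644. In mean salt CPM, not corrected for length, those LBD39 clusters stood at 14.3 and 10.9, below that LBD41 cluster at 18.5. The order by FPKM thus depends on cluster length.

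Of the 83 members, 50 passed the filter on low counts and were tested. The other 33, of which 30 are named LBD or LOB, reached at most 1.69 CPM and 34.2 counts in any library. Among the tested members, edgeR called 12 higher in salt (24.0%) and 14 lower (28.0%) at an adjusted p under 0.05. The background over all 5284 tested regulator clusters, with or without a flowering plant match, was 53.2% called, 23.9% higher and 29.3% lower. The family as a whole was called about as often as this background. Among the 39 tested LBD and LOB clusters alone, 10 were higher (25.6%) and 13 lower (33.3%). The background of regulators with a flowering plant match was 47.9% called, 12.3% higher and 35.5% lower. All members have such a match. Beside this background, larger shares of the members and of the LBD and LOB clusters were called higher, and smaller shares lower. That difference was not tested. The median log2 fold change, salt minus control, was -0.34 over the 39 clusters, beside -0.37 over all tested regulators and -0.62 over those with a flowering plant match.

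Under each LBD number the called clusters went in 1 direction, with the exception of LBD39, which had calls in both. Within class I, 5 of 24 tested clusters were called higher and 9 lower. Within class II, 5 of 15 were called higher and 4 lower. Groups did not overlap for 29 of the 39 LBD and LOB clusters, against 67.3% of all tested regulators. With plant-matched scaling, 38 of these clusters could be tested, of which 14 were called higher and 4 lower, with a median of 0.12. The background under that scaling was 42.3% called, 21.4% higher and 20.9% lower, for regulators with a flowering plant match. All 10 higher calls stood under both scalings, while 4 of the 13 lower calls did. Plant-matched scaling moved log2 fold changes upward (the median over tested regulators by 0.51), which favours higher calls over lower ones. The 2 counts therefore do not compare how stable higher and lower calls are. DESeq2 called 17 members higher and 9 lower, against a background of 39.6% called, 24.3% higher and 15.3% lower. On log2(FPKM + 1), limma called 11 members higher and 18 lower, against 51.3%, 22.8% and 28.4% over the table of all clusters. DESeq2 and limma used other filters than edgeR, so their member counts are not out of the same 50. They cannot be set directly against these shares. Over all 50 members tested by edgeR, higher calls fell from 12 to 7 without control 1 or without control 3. Lower calls fell from 14 to 6, 8 and 7 without control 1, 2 or 3.

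**Figure D1:**
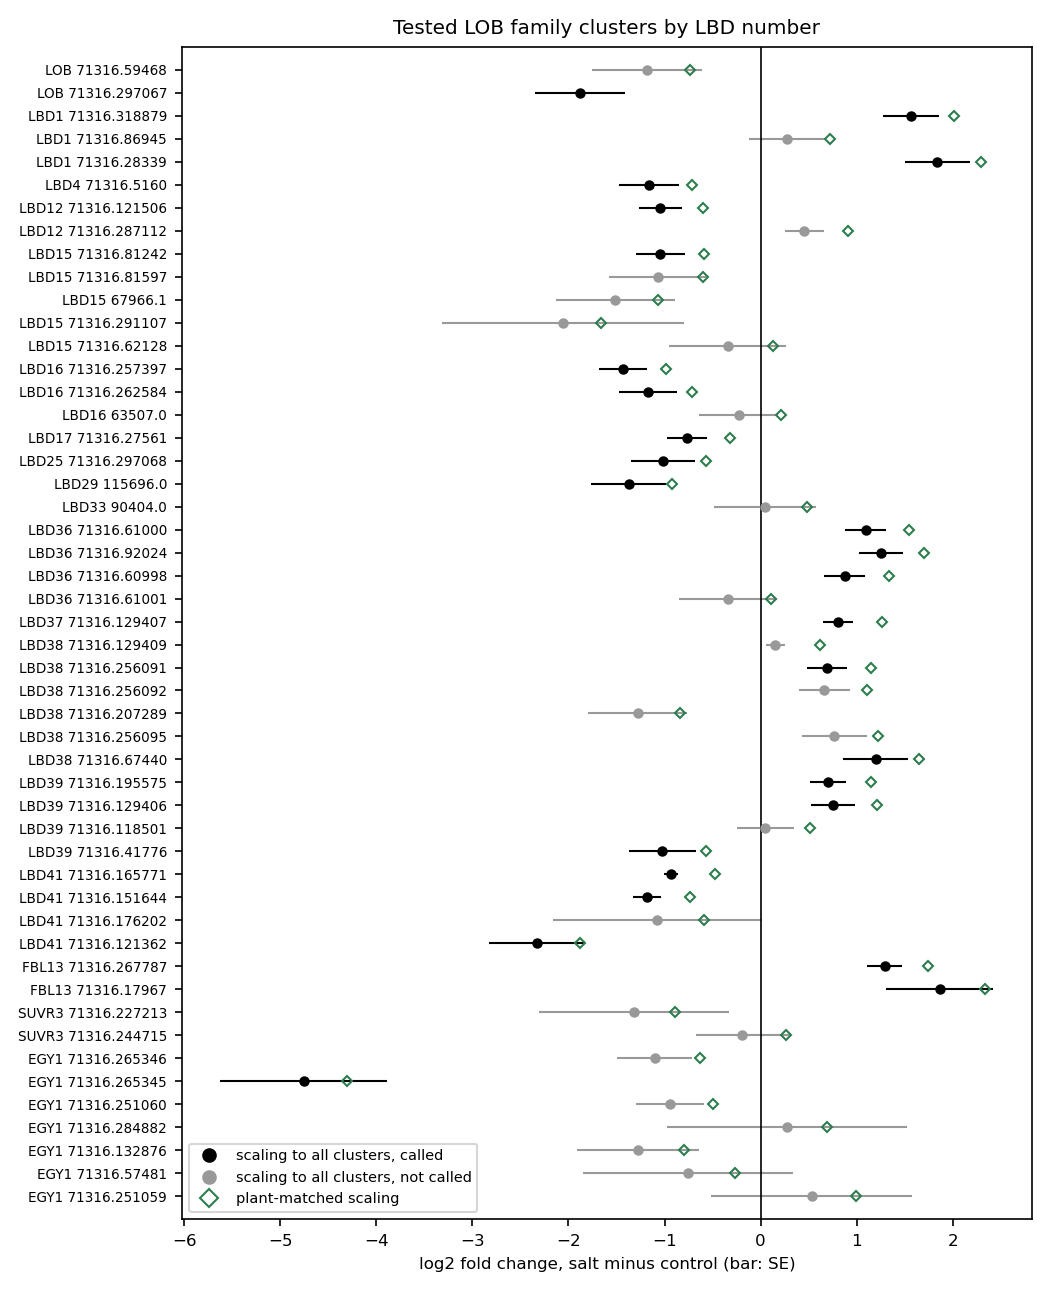
Log2 fold change (salt minus control, from edgeR) of all 50 tested members, grouped by name, with bars of ± 1 SE; black points were called, grey points were not, and open diamonds give the value with plant-matched scaling. FBL13 stands for F-box/LRR-repeat protein 13. LBD41, LBD16, LBD17 and LBD29 hold called clusters below 0 and none above, and LBD1, LBD36, LBD37 and LBD38 hold called clusters above 0 and none below.

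Among the members, LBD41 had the largest difference in CPM between the groups. In Arabidopsis, LBD41 is a class II gene that is induced when oxygen is low. All 4 of its clusters were tested, and edgeR called 3 lower and 0 higher. Cluster-71316.165771 stood at 249, 258 and 230 CPM in control 1 to 3 and at 139, 121 and 127 CPM in salt 1 to 3. Every control library was above every salt library, and the salt mean was 0.525 of the control mean (246 ± 14.2 against 129 ± 8.97 CPM, SD, n = 3). Its log2 fold change was -0.93 (SE 0.07, edgeR adjusted p = 0.00025), and -0.48 with plant-matched scaling (adjusted p = 0.00053).

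The less abundant LBD41 clusters moved the same way. Cluster-71316.151644 stood at 41.4, 44.6 and 40.03 CPM in control and at 22.5, 15.5 and 17.4 CPM in salt (log2 fold change -1.19, SE 0.15, edgeR adjusted p = 0.0011). Cluster-71316.121362 stood at 1.30, 1.14 and 1.37 CPM in control and at 0.151, 0.219 and 0.422 CPM in salt (log2 fold change -2.33, SE 0.50, edgeR adjusted p = 0.0084). The groups overlapped in neither of them, and with plant-matched scaling the log2 fold changes were -0.74 and -1.88 (adjusted p = 0.0027 and 0.022). Cluster-71316.176202 was uneven among replicates, at 1.62, 4.04 and 5.60 CPM in control and 0, 2.94 and 2.41 CPM in salt, and was not called (edgeR adjusted p = 0.44).

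Because LBD41 was so abundant, it set the family total. Summed over the 69 LBD and LOB clusters, the level was 420, 441 and 403 CPM in control and 312, 276 and 281 CPM in salt. LBD41 alone gave 293, 308 and 277 CPM in control and 162, 140 and 147 CPM in salt. Without LBD41, the remaining 65 clusters summed to 127, 133 and 125 CPM in control and to 150, 136 and 134 CPM in salt. The total of the family was lower in every salt library than in any control library, at a ratio of means (salt over control) of 0.687. The total without LBD41 had a ratio of 1.09, and a rise did not stand under every scaling. Without a composition factor the groups overlapped at a ratio of 1.001, with 2 of the 3 salt libraries below every control library, and with plant-matched scaling the ratio was 1.49. With plant-matched scaling the ratio was 0.942 for the family and 0.70 for LBD41, again with every salt library below every control library. LBD41 took 69.7%, 69.9% and 68.9% of the family's counts in control and 51.9%, 50.8% and 52.3% in salt. This share is taken within a library and is not corrected for length, so no scaling between libraries enters it.

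**Figure D2:**
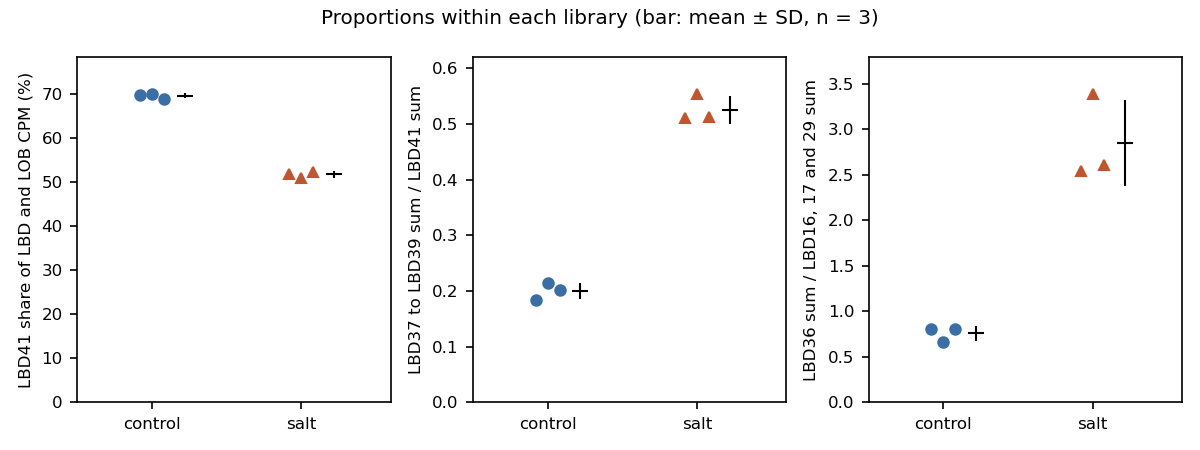
Proportions taken within each library, on linear axes that start at 0, with points for the 3 control and 3 salt libraries and bars for mean ± SD. The share of LBD41 fell from 69.5% ± 0.557 to 51.7% ± 0.801, while the ratio of LBD37 to LBD39 over LBD41 went from 0.200 ± 0.0146 to 0.525 ± 0.0247 and that of LBD36 over LBD16, LBD17 and LBD29 from 0.758 ± 0.0830 to 2.85 ± 0.469.

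LBD37, LBD38 and LBD39 were the other class II genes found, and 5 of their 6 calls were higher in salt. In Arabidopsis they are induced by nitrate and repress anthocyanin synthesis genes and genes of nitrogen uptake and use. Of their 17 clusters, 11 were tested, and edgeR called 5 higher and 1 lower. Their summed level was 54.1, 65.9 and 55.7 CPM in control and 82.4, 77.6 and 75.2 CPM in salt, with every salt library above every control library (ratio of means 1.34, and 1.84 with plant-matched scaling). Several of these clusters carry adjacent numbers under 1 assembly prefix, and the 3 proteins are close relatives, so the deposited counts may divide reads among them.

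The single tested LBD37 cluster, Cluster-71316.129407, stood at 5.10, 5.96 and 4.75 CPM in control and at 8.59, 9.35 and 9.75 CPM in salt. It rose 1.75-fold in mean CPM (log2 fold change 0.81, SE 0.15, edgeR adjusted p = 0.0051; 1.27 with plant-matched scaling, adjusted p = 0.0011). Among LBD38 clusters, 2 of 6 tested were called higher and 0 lower. Cluster-71316.256091 stood at 3.31, 4.21 and 3.17 CPM in control and at 5.52, 5.15 and 6.55 CPM in salt (log2 fold change 0.69, SE 0.21, edgeR adjusted p = 0.030). Cluster-71316.67440 stood at 1.11, 1.10 and 0.771 CPM in control and at 2.52, 1.76 and 2.57 CPM in salt (log2 fold change 1.20, SE 0.34, edgeR adjusted p = 0.023). For both, no salt library was as low as any control library. The most abundant LBD38 cluster, Cluster-71316.129409, overlapped between groups, at 17.9, 20.9 and 19.96 CPM in control and 20.5, 23.4 and 21.4 CPM in salt, and was not called (edgeR adjusted p = 0.24). With plant-matched scaling it was called, at a log2 fold change of 0.61 (adjusted p = 0.0044), and 5 of the 6 LBD38 clusters were then called higher. The remaining LBD38 cluster, Cluster-71316.207289, went the other way without overlap, at 2.17, 2.86 and 2.87 CPM in control and 1.77, 1.04 and 0.406 CPM in salt. It was not called (log2 fold change -1.28, SE 0.51, edgeR adjusted p = 0.075), nor with plant-matched scaling (-0.84, adjusted p = 0.21).

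Among LBD39 clusters, 2 of 4 tested were called higher and 1 lower. Cluster-71316.195575 stood at 7.54, 9.52 and 9.24 CPM in control and at 17.95, 12.3 and 12.5 CPM in salt (log2 fold change 0.70, SE 0.19, edgeR adjusted p = 0.020). Salt 1 lay above the other salt libraries there, and all 3 lay above control. Cluster-71316.129406 stood at 5.33, 8.70 and 5.38 CPM in control and at 10.7, 12.3 and 9.75 CPM in salt (log2 fold change 0.75, SE 0.23, edgeR adjusted p = 0.032). Cluster-71316.41776 went the other way, at 2.76, 2.37 and 1.70 CPM in control and 1.14, 0.844 and 1.38 CPM in salt (log2 fold change -1.02, SE 0.35, edgeR adjusted p = 0.047), and was not called with plant-matched scaling (adjusted p = 0.22). With that scaling, 8 of the 11 tested LBD37, LBD38 and LBD39 clusters were called higher and 0 lower.

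Several of these class II calls lay near the threshold and were lost when 1 library was left out. LBD37 Cluster-71316.129407 was called without each library in turn, with adjusted p up to 0.025. LBD39 Cluster-71316.41776 lost its call whichever of the 6 libraries was left out, with adjusted p from 0.051 to 0.15. LBD39 Cluster-71316.195575 was not called without control 1 or control 3 (edgeR adjusted p = 0.072 and 0.053). LBD39 Cluster-71316.129406 was not called without control 1, control 3, salt 1 or salt 2 (edgeR adjusted p = 0.0999, 0.10, 0.058 and 0.099). LBD38 Cluster-71316.256091 was not called without control 1, control 3 or salt 3 (edgeR adjusted p = 0.098, 0.097 and 0.087). LBD38 Cluster-71316.67440 was called without salt 2 alone, and its adjusted p otherwise ran from 0.051 to 0.070. All of them kept their direction.

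**Figure D3:**
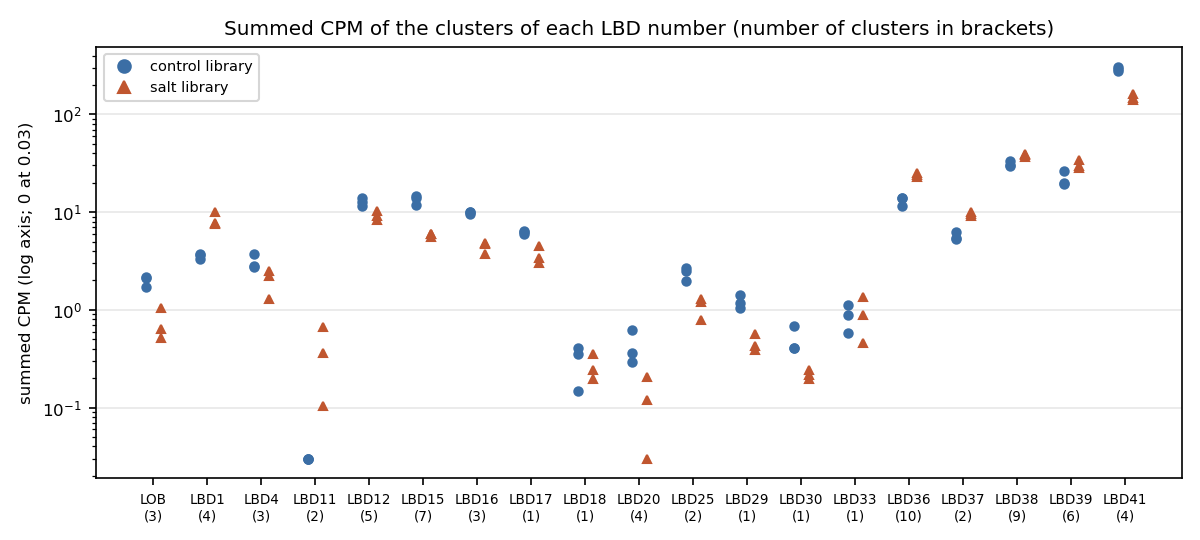
Summed CPM of all clusters of each LBD name in each library, on a log axis, with circles for control and triangles for salt libraries and values of 0 drawn at the lower end. LBD41 lies highest, with all control libraries above all salt libraries, and the sums of LBD1, LBD36, LBD37, LBD38 and LBD39 lie higher in every salt library than in any control library.

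LBD16, LBD17 and LBD29, class I relatives, were lower in salt. LBD16 and LBD29 act in Arabidopsis lateral root formation downstream of ARF7 and ARF19, and LBD17 and LBD29 can drive callus formation there. Of their 5 clusters, all tested, edgeR called 4 lower and 0 higher, and their summed level was 17.2, 17.3 and 17.3 CPM in control against 9.77, 7.09 and 8.68 CPM in salt (ratio of means 0.493, and 0.673 with plant-matched scaling). LBD16 Cluster-71316.257397 stood at 5.33, 6.19 and 4.95 CPM in control and at 2.36, 1.53 and 2.20 CPM in salt (log2 fold change -1.43, SE 0.25, edgeR adjusted p = 0.0035). LBD16 Cluster-71316.262584 stood at 3.21, 2.59 and 4.12 CPM in control and at 1.22, 1.5997 and 1.53 CPM in salt (log2 fold change -1.17, SE 0.31, edgeR adjusted p = 0.017). Control and salt libraries were apart for both of these, while the third LBD16 cluster, Cluster-63507.0, overlapped at 1.06, 1.18 and 0.997 against 1.21, 0.585 and 0.975 CPM (edgeR adjusted p = 0.66).

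LBD17 Cluster-71316.27561 stood at 6.22, 6.36 and 6.04 CPM in control and at 4.54, 2.99 and 3.41 CPM in salt (log2 fold change -0.77, SE 0.21, edgeR adjusted p = 0.022). LBD29 Cluster-115696.0 stood at 1.41, 1.04 and 1.17 CPM in control and at 0.426, 0.390 and 0.569 CPM in salt (log2 fold change -1.38, SE 0.40, edgeR adjusted p = 0.025). Neither overlapped between groups. With plant-matched scaling, LBD16 Cluster-71316.257397 was still called (log2 fold change -0.98, adjusted p = 0.014). LBD16 Cluster-71316.262584, LBD17 and LBD29 then had log2 fold changes of -0.72, -0.32 and -0.93 and were not called (adjusted p = 0.11, 0.22 and 0.096). Leaving out 1 library ended the call of LBD16 Cluster-71316.262584 without control 1 or control 3 (edgeR adjusted p = 0.0501 and 0.063). LBD17 was called without salt 1 alone, with adjusted p otherwise from 0.057 to 0.072, and LBD29 was called without salt 3 alone, with adjusted p otherwise from 0.068 to 0.11.

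LBD33, which acts with LBD18 in Arabidopsis lateral root initiation, was represented by Cluster-90404.0 at 0.880, 1.13 and 0.586 CPM in control and 1.35, 0.455 and 0.894 CPM in salt. The groups overlapped and it was not called (edgeR adjusted p = 0.95). LBD18 and LBD30, which promote formation of the water-conducting tracheary elements in Arabidopsis, were below the filter with 1 cluster each. LBD18 ranged from 0.148 to 0.410 CPM in control and from 0.195 to 0.355 in salt, and LBD30 from 0.410 to 0.690 and from 0.195 to 0.244.

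Genes tied to vascular growth moved in both directions. LBD1, whose poplar counterpart takes part in secondary growth of the stem, had 4 clusters of which 3 were tested, 2 called higher and 0 lower. Cluster-71316.318879 stood at 1.58, 1.32 and 1.73 CPM in control and at 5.59, 4.72 and 3.35 CPM in salt, a 2.95-fold rise in mean CPM (log2 fold change 1.57, SE 0.29, edgeR adjusted p = 0.0046). Cluster-71316.28339 stood at 0.645, 0.604 and 0.675 CPM in control and at 2.33, 1.80 and 2.88 CPM in salt, a 3.65-fold rise (log2 fold change 1.84, SE 0.34, edgeR adjusted p = 0.0043). All salt libraries lay above all control libraries for both, and plant-matched scaling gave log2 fold changes of 2.01 and 2.29 (adjusted p = 0.0017 and 0.0019). These 2 clusters have the same Swiss-Prot score, 462, and similar lengths, 1033 and 1026 bases, so reads may be shared between them. Their sum was 2.23, 1.92 and 2.40 CPM in control and 7.92, 6.52 and 6.23 CPM in salt. Cluster-71316.86945, matched to the same protein with a score of 224, was not called (edgeR adjusted p = 0.59).

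LBD4, which marks the boundary between phloem and procambium in Arabidopsis, had 1 tested cluster of 3. Cluster-71316.5160 stood at 2.63, 2.30 and 3.23 CPM in control and at 1.49, 1.15 and 0.975 CPM in salt, without overlap (log2 fold change -1.16, SE 0.31, edgeR adjusted p = 0.019). It was not called with plant-matched scaling (log2 fold change -0.72, adjusted p = 0.095). It was also not called without control 1, control 3, salt 2 or salt 3 (edgeR adjusted p = 0.052, 0.068, 0.055 and 0.051). LBD11, a cambium regulator in Arabidopsis, had 2 clusters under the filter that summed to 0 CPM in every control library and to 0.670, 0.360 and 0.104 CPM in salt. At these depths 1 count equals 0.0493 to 0.0812 CPM, so LBD11 lay near the limit of detection.

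LBD36, a relative of the Arabidopsis leaf polarity regulator AS2, was higher in salt. Of its 10 clusters 4 were tested, and edgeR called 3 higher and 0 lower. Cluster-71316.61000 stood at 4.89, 4.21 and 3.69 CPM in control and at 9.96, 6.99 and 10.3 CPM in salt (log2 fold change 1.09, SE 0.21, edgeR adjusted p = 0.0055). Cluster-71316.92024 stood at 4.34, 2.91 and 3.71 CPM in control and at 9.02, 10.1 and 6.91 CPM in salt (log2 fold change 1.25, SE 0.23, edgeR adjusted p = 0.0044). Every salt library exceeded every control library in both. Cluster-71316.60998 stood at 2.46, 2.32 and 2.27 CPM in control and at 4.39, 4.67 and 3.88 CPM in salt (log2 fold change 0.88, SE 0.21, edgeR adjusted p = 0.013). Without any 1 library these 3 were still called, and plant-matched scaling gave 1.55, 1.70 and 1.33 (adjusted p = 0.0013, 0.0017 and 0.0026). The third, Cluster-71316.60998, was not called by limma on log2(FPKM + 1) or log2(FPKM + 0.1), by limma without a filter, or by edgeR with a replicate block. Cluster-71316.61001 was not called (edgeR adjusted p = 0.60). Of the 10 clusters, 7 share 1 Swiss-Prot score of 569 and may be copies of 1 gene. The sum of those 7 was 1.69 times as high in salt as in control. The sum of all 10 was 1.82 times as high, at 13.9, 11.5 and 13.9 CPM in control against 24.9, 24.0 and 22.7 CPM in salt. With plant-matched scaling the sum of all 10 was 2.49 times as high.

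Groups of members that moved in opposite directions were also set against each other, first within class I and then within class II. The ratio of summed LBD36 to summed LBD16, LBD17 and LBD29 was 0.807, 0.662 and 0.804 in control and 2.55, 3.39 and 2.61 in salt, a 3.76-fold difference of means. The ratio of summed LBD37, LBD38 and LBD39 to LBD41 was 0.185, 0.214 and 0.201 in control and 0.510, 0.554 and 0.512 in salt, a 2.63-fold difference. Both are taken within a library, so the scaling of libraries does not enter them. No p is given for these ratios, since the groups of genes were put together with results of these data known. A contrast above the spread between libraries therefore came with that choice and adds no support. LBD33, also tied to lateral roots and not called, was left out of the first ratio.

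**Figure D4:**
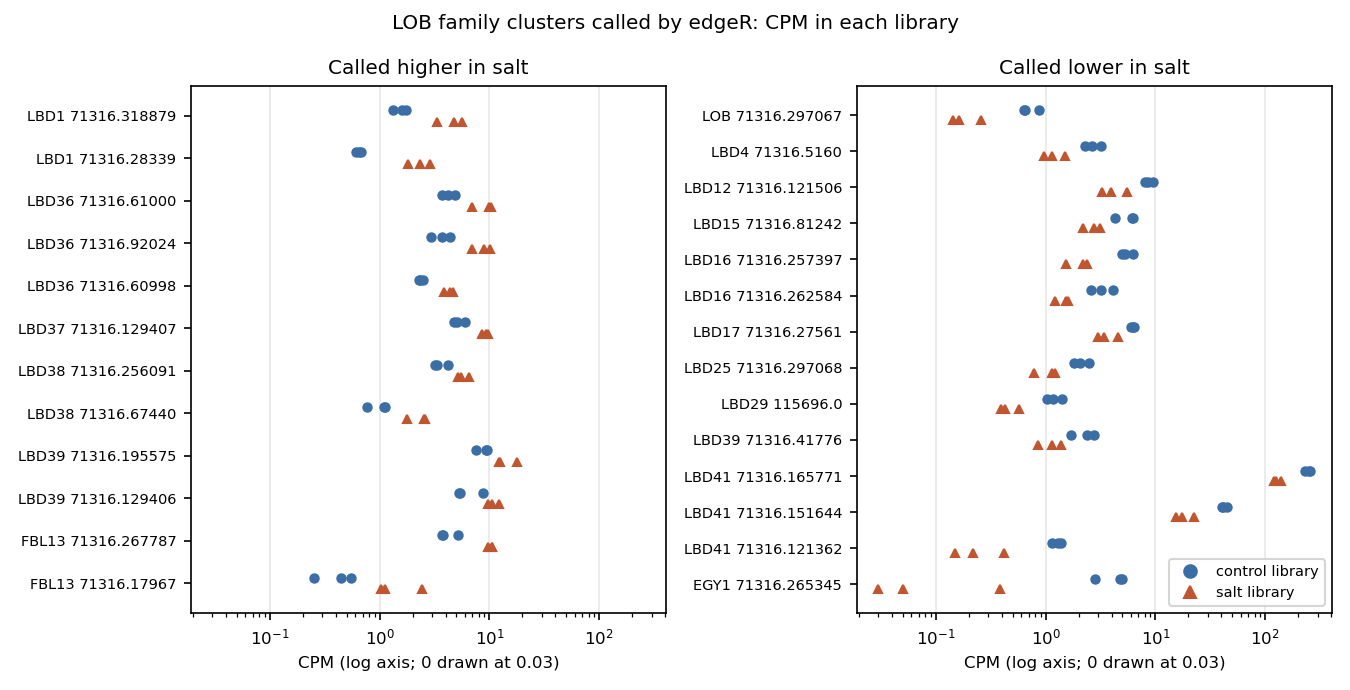
CPM in each of the 3 control and 3 salt libraries for the 26 members that edgeR called, on a log axis with values of 0 drawn at the left end. LBD41 Cluster-71316.165771 lies far above the others at 121 to 258 CPM. For every cluster shown the salt libraries lie all above or all below the control libraries. The clusters were picked by calls on these same libraries, so this separation adds no support, and 67.3% of all tested regulators show it.

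Among the remaining class I clusters, calls were lower in salt. LBD12 Cluster-71316.121506 stood at 9.60, 8.03 and 8.55 CPM in control and at 5.47, 3.96 and 3.25 CPM in salt (log2 fold change -1.04, SE 0.22, edgeR adjusted p = 0.0083). A further LBD12 cluster, Cluster-71316.287112, stood at 3.53, 2.91 and 3.52 CPM in control and at 4.19, 4.81 and 4.63 CPM in salt and was not called (edgeR adjusted p = 0.098). With plant-matched scaling the picture of LBD12 turned, since the former was not called (-0.60, adjusted p = 0.053) and the latter was called higher (0.91, adjusted p = 0.011). LBD15 Cluster-71316.81242 stood at 6.28, 6.06 and 4.26 CPM in control and at 3.12, 2.74 and 2.21 CPM in salt (log2 fold change -1.04, SE 0.25, edgeR adjusted p = 0.013). The other 4 tested LBD15 clusters were not called (edgeR adjusted p from 0.080 to 0.66). The summed LBD15 level was 14.6, 13.9 and 11.9 CPM in control and 5.61, 5.91 and 5.93 CPM in salt (ratio of means 0.431, and 0.593 with plant-matched scaling).

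LBD25 and LOB, 2 neighbours in the assembly's numbering, were also lower. LBD25, linked to auxin response in Arabidopsis, stood in Cluster-71316.297068 at 2.05, 1.82 and 2.46 CPM in control and at 1.21, 0.779 and 1.14 CPM in salt (log2 fold change -1.02, SE 0.33, edgeR adjusted p = 0.039). LOB, the founding member, which acts at organ boundaries in Arabidopsis, stood in Cluster-71316.297067 at 0.645, 0.641 and 0.879 CPM in control and at 0.142, 0.260 and 0.162 CPM in salt (log2 fold change -1.88, SE 0.47, edgeR adjusted p = 0.015). The groups were apart for both. A second LOB cluster, Cluster-71316.59468, stood at 1.06, 1.18 and 1.17 CPM in control and 0.426, 0.195 and 0.894 CPM in salt and was not called (edgeR adjusted p = 0.13). With plant-matched scaling, LBD15 Cluster-71316.81242 and LBD25 were not called (log2 fold changes -0.59 and -0.57, adjusted p = 0.085 and 0.19), and LOB Cluster-71316.297067 fell below the filter. LBD25 was not called without any 1 of the 6 libraries (edgeR adjusted p from 0.0501 to 0.12). LBD15 Cluster-71316.81242 was not called without control 1 or control 2 (edgeR adjusted p = 0.056 and 0.054), and LOB Cluster-71316.297067 was not called without salt 1 or salt 3 (edgeR adjusted p = 0.068 and 0.066) and not tested without any 1 control library. LBD20, a gene of susceptibility to Fusarium in Arabidopsis, had 4 clusters under the filter that summed to 0.295 to 0.621 CPM in control and to 0 to 0.208 CPM in salt.

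The 69 LBD and LOB clusters are not 69 independent genes. They were 204 to 2064 bases long, with a median of 811 bases, and 52 of them carried the same assembly prefix. Swiss-Prot match scores ran from 137 to 733, with a median of 393. In 8 sets, 2 or more clusters share both name and score, and these sets hold 22 clusters. Cultivated chrysanthemum is polyploid, so such clusters can be copies, alleles or fragments of 1 gene. The best NR matches came from 20 plant genera, most often Nicotiana (13) and Sesamum (8), so the LBD numbers are names of closest matches and do not establish orthology.

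Among the 14 clusters under other protein names, 11 were tested, with 2 called higher and 1 lower. F-box/LRR-repeat protein 13 Cluster-71316.267787 stood at 5.14, 3.74 and 3.71 CPM in control and at 10.5, 10.6 and 9.68 CPM in salt (log2 fold change 1.29, SE 0.18, edgeR adjusted p = 0.0017). Its companion, Cluster-71316.17967, stood at 0.255, 0.546 and 0.447 CPM in control and at 1.03, 2.46 and 1.122 CPM in salt (log2 fold change 1.86, SE 0.56, edgeR adjusted p = 0.029). Plant-matched scaling gave them log2 fold changes of 1.75 and 2.33 (adjusted p = 6.0e-04 and 0.014). Both were apart between groups, and both match the protein with a low score of 148, so the name is weak. The latter was not called without any 1 control library or without salt 2 (edgeR adjusted p from 0.062 to 0.11).

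EGY1, needed for chloroplast development in Arabidopsis, held the largest fall among the tested members on the log2 scale, though not in CPM. Cluster-71316.265345 stood at 4.80, 4.998 and 2.80 CPM in control and at 0, 0.0507 and 0.380 CPM in salt (log2 fold change -4.76, SE 0.87, edgeR adjusted p = 0.0043; -4.30 with plant-matched scaling, adjusted p = 0.0071). It shares its match score of 1981 with 4 other tested EGY1 clusters, none of which was called (edgeR adjusted p from 0.061 to 0.86), so the fall of this cluster is not that of the gene's total. The sum of the 9 EGY1 clusters was 25.1, 22.8 and 23.4 CPM in control and 11.5, 12.8 and 13.3 CPM in salt (ratio of means 0.527, and 0.724 with plant-matched scaling). Both tested SUVR3 clusters overlapped between groups and were not called (edgeR adjusted p = 0.30 and 0.76).

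The authors' deposited table called 7 members UP and 4 DOWN. Its background over all 10744 regulator clusters was 13.5% UP and 10.2% DOWN. All 11 members called in the authors' deposited table were called in the same direction by edgeR. A further 15 members called by edgeR had no call there, among them LBD41 Cluster-71316.165771, to which the authors' deposited table gives a log2 ratio of -0.86 and a q value of 2.9e-39. Of those 15, 11 had an absolute log2 ratio under 1 in the authors' deposited table, and every regulator it calls has at least 1 in size. The q value there was 0.05 or more for 7 of the 15, and every regulator it calls has a q under 0.05. These 7 were all called lower by edgeR, under the names LOB, LBD4, LBD16, LBD17, LBD25, LBD29 and LBD39.

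Other genes of the pathways in which LBD proteins act are given beside the background of 12.3% called higher and 35.5% lower among regulators with a flowering plant match. Lower calls also outnumbered higher ones in that background, and the lists of VND, anthocyanin and lateral root primordium factors hold few tested clusters. ARFs, which bind auxin response elements and, as ARF7 and ARF19, act upstream of LBD16 and LBD29 in Arabidopsis, had 96 tested clusters, of which 2 were called higher and 52 lower, with a median log2 fold change of -1.54. With plant-matched scaling 5 were higher and 37 lower of 95. Among clusters named ARF19, 1 of 11 tested was called higher and 5 lower. ARF11 Cluster-71316.127003 fell from 50.2 ± 0.866 to 10.4 ± 1.46 CPM (SD, n = 3; log2 fold change -2.27, SE 0.12, edgeR adjusted p = 7.9e-05). The most abundant ARF cluster, ARF6 Cluster-71316.196367, fell from 63.0 ± 2.57 to 43.8 ± 5.70 CPM (SD, n = 3; edgeR adjusted p = 0.0066), and was not called with plant-matched scaling (adjusted p = 0.71). AUX/IAA proteins, which repress ARFs, had 49 tested clusters with 2 higher and 20 lower, and a median of -0.73, and with plant-matched scaling 4 higher and 14 lower. IAA9 Cluster-71316.161819 fell from 216 ± 11.4 to 104 ± 3.19 CPM (SD, n = 3; edgeR adjusted p = 9.4e-05), and its log2 fold change with plant-matched scaling was -0.60 (adjusted p = 0.00041).

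NIN-like proteins, regulators of nitrate responses, had 90 tested clusters with 3 called higher and 39 lower, and a median log2 fold change of -1.13, and with plant-matched scaling 5 higher and 25 lower of 89. NLP7 Cluster-71316.176179 fell from 14.97 ± 0.990 to 3.07 ± 0.340 CPM (SD, n = 3; edgeR adjusted p = 0.00012; log2 fold change -1.83 with plant-matched scaling, adjusted p = 0.00031). NLP6 Cluster-71316.200126, the most abundant, fell from 31.0 ± 6.52 to 13.3 ± 5.83 CPM (SD, n = 3; edgeR adjusted p = 0.028), and was not called with plant-matched scaling (adjusted p = 0.15). Of 2 tested anthocyanin regulators, EGL1 Cluster-71316.84690 fell from 2.36 ± 0.115 to 0.237 ± 0.0426 CPM (SD, n = 3; edgeR adjusted p = 0.00064; log2 fold change -2.81 with plant-matched scaling, adjusted p = 0.0012). MYB90 Cluster-71316.151757 stood at 2.39 ± 0.414 and 2.74 ± 0.599 CPM (SD, n = 3) and was not called (edgeR adjusted p = 0.60).

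Among KNOX homeobox genes and AS1, whose product works with AS2 to repress KNOX genes, 0 of 11 tested clusters were called higher by edgeR and 6 lower. With DESeq2 size factors or column sums 1 of them was called higher, and with plant-matched scaling 1 was higher and 4 lower. LET12 Cluster-71316.181468 fell from 38.6 ± 3.29 to 10.2 ± 1.75 CPM (SD, n = 3; edgeR adjusted p = 0.00024; log2 fold change -1.45 with plant-matched scaling, adjusted p = 0.00085). The most abundant, knotted-1-like 7 Cluster-71316.176933, fell from 44.7 ± 1.34 to 22.6 ± 1.504 CPM (SD, n = 3; edgeR adjusted p = 0.00026; log2 fold change -0.53 with plant-matched scaling, adjusted p = 0.0018). Of 3 tested NAC factors of the vessel-forming VND type, 1 was called lower, NAC76 Cluster-71316.100859, which fell from 57.5 ± 1.21 to 15.8 ± 0.769 CPM (SD, n = 3; log2 fold change -1.87, SE 0.07, edgeR adjusted p = 4.4e-05; -1.41 with plant-matched scaling, adjusted p = 9.2e-05). Factors of lateral root primordia, such as the AIL genes, had 1 of 7 called higher and 1 lower, and with plant-matched scaling 2 higher and 1 lower. The higher one, AIL6 Cluster-71316.174548, rose from 14.8 ± 1.05 to 23.1 ± 0.873 CPM (SD, n = 3; log2 fold change 0.64, SE 0.09, edgeR adjusted p = 0.0019; 1.10 with plant-matched scaling, adjusted p = 0.00043).

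**Figure D5:**
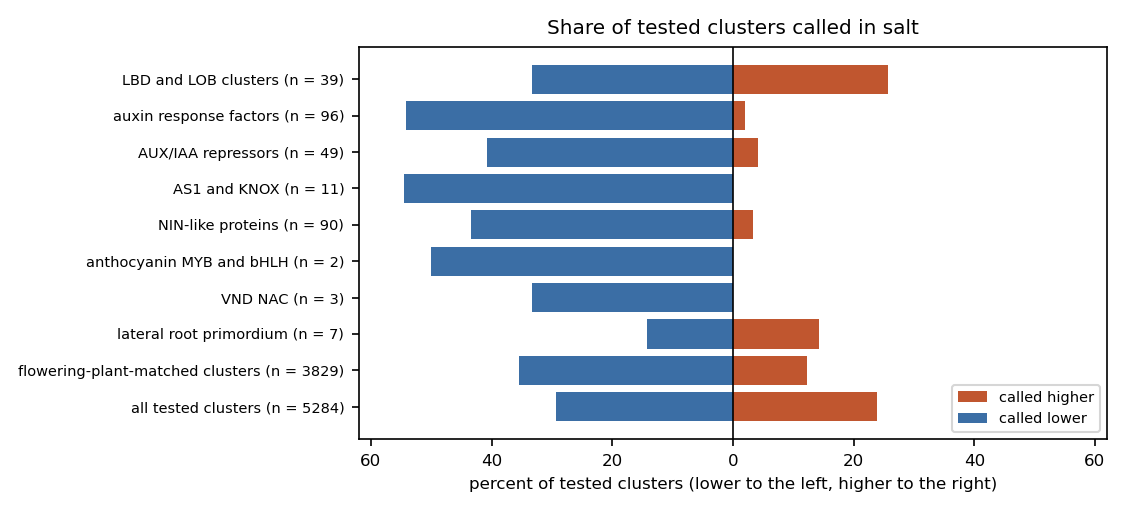
Percent of tested clusters called lower (left) or higher (right) in salt by edgeR, for LBD and LOB clusters, for each other gene list and for the 2 backgrounds, with the number tested beside each name. LBD and LOB clusters show 33.3% lower and 25.6% higher, while ARFs show 54.2% lower and 2.08% higher and all tested clusters 29.3% and 23.9%.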

How the data were processed

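RNA-seq values of 6 root libraries were used as deposited. Per the labels, total RNA went into TruSeq libraries. Bowtie2 2.0.6 and TopHat2 2.0.12 appear in the submitters' processing notes, with no role given. The sources used here do not give the assembler, counter or annotation tools. The authors deposited expected counts for 10744 regulator clusters in 10935 rows (49.4% of values are not whole) and FPKM for these and for all 469059 clusters. The authors' log2 ratio and q-value, and the database match score of each cluster, stand in the same deposited table.

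Column sums cover part of a library, so depth was recovered from count and FPKM (clusters with at least 200 counts and 1000 bases). Counts were rounded and tested with the quasi-likelihood F-test of edgeR 4.0.16 under R 4.3.3, after filterByExpr. Library sizes were this depth multiplied by TMM factors, which were computed on FPKM of every cluster. P-values were adjusted by Benjamini-Hochberg over all 5284 clusters tested and called under 0.05. CPM uses the same library sizes, SDs are over n = 3 libraries, and the SE is that implied by the F statistic. Plant-matched scaling takes TMM factors from the 6606 regulator clusters with a flowering plant Swiss-Prot match, and not from every cluster. Changes under it are relative to those regulators, whose tested clusters then had a median log2 fold change of -0.15 (-0.62 under the main scaling). The p-values measure the spread between libraries labelled as biological replicates. Alternatives were DESeq2 1.42.0, its size factors, other scalings, no filter, a replicate block, leaving out each library, and limma 3.58.1 on log2(FPKM + 1) or log2(FPKM + 0.1).

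In tests on simulated data for salt against control (4971 clusters), 17.2% of 2-fold and 85.7% of 4-fold changes were recovered. Only 93 and 98 of those clusters carried such changes, and all clusters were simulated with the same dispersion. In the data themselves 53.2% of tested clusters were called, so these shares are not recovery rates for the data.

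The members and gene lists were chosen with earlier results of these data known. Named were every called member and, per LBD name, the members with the highest mean and the smallest p. Per list, those with the smallest p and the highest mean CPM were named. List names were matched to deposited Swiss-Prot names, with the AINTEGUMENTA-like genes under AIL, and members not so chosen were named after their values were seen. No sequences or coordinates are given, since no genome was used here.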

Additional observations from a re-analysis of the deposited data

How the results depend on the processing

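Of 26 called members, 11 kept direction and call in all 16 other settings. They are the 3 called clusters of LBD41, both of LBD1, LBD36 Cluster-71316.61000 and Cluster-71316.92024, LBD16 Cluster-71316.257397, LBD37, F-box/LRR-repeat protein 13 Cluster-71316.267787 and EGY1 Cluster-71316.265345. Without each library in turn 13 did so, and under 4 other scalings 17. Higher members (12) numbered 7 with the replicate block and 7 to 12 without 1 library. Lower members (14) numbered 9 with DESeq2, 8 with DESeq2 size factors, 5 with plant-matched scaling, 7 with the replicate block and 6 to 13 without 1 library. Why was not tested, save that leaving out a library or adding a block leaves fewer residual degrees of freedom. Same-numbered libraries correlated at 0.014 to 0.037 in their deviations, under the limit of 0.1, so the numbers were not taken as pairs, although 6 of 6 libraries correlated best with their own number.

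Over all regulators, DESeq2 called 2332 higher of 9595 tested (edgeR 1261) and plant-matched scaling called 899 lower (edgeR 1549). The median log2 fold change moved by 0.51 under plant-matched scaling, 0.30 under DESeq2 size factors, 0.10 when column sums were used and -0.14 when no composition factor was. Higher calls made up 46.2% of calls among members, and 76.2%, 66.7%, 54.2% and 42.9% under these settings in turn (all regulators 44.9%, then 65.9%, 57.2%, 49.1% and 39.7%). All regulators include clusters without a flowering plant match, which the members do not. Regulators with such a match had 472 higher among 1833 calls, and 811 among 1600 with plant-matched scaling. Both shares lay below those of members.

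Among ARFs, 5 were called higher with plant-matched scaling and 2 to 4 without 1 library (2 in the report). For AUX/IAA it was 4 with plant-matched scaling, 1 with no composition factor and 1 to 3 without 1 library (2 in the report). For AS1 and KNOX it was 1 with DESeq2 size factors, plant-matched scaling or column sums (0 in the report). NIN-like proteins had 5 higher and 25 lower with plant-matched scaling (3 and 39 in the report). Lateral root primordium factors had 2 higher with DESeq2 size factors or plant-matched scaling and 1 to 2 without 1 library (1 in the report).

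Of the 50 tested members, 8 changed direction in at least 1 setting, 4 of them under plant-matched scaling, and 0 of the 8 were called. Besides those 2 given next, these were LBD15 Cluster-71316.62128, LBD16 Cluster-63507.0, LBD36 Cluster-71316.61001, LBD39 Cluster-71316.118501 and EGY1 Cluster-71316.284882 and Cluster-71316.251059. LBD33 Cluster-90404.0 (0.05) had log2 fold changes of -0.057 with limma at log2(FPKM + 1), -0.057 with limma and no filter, -0.14 with limma at log2(FPKM + 0.1), -0.069 with no composition factor, -0.0074 with the replicate block and -0.37 to 0.37 without 1 library (-0.17 without control 3). SUVR3 Cluster-71316.244715 (-0.19) had 0.076 with DESeq2, 0.083 with DESeq2 size factors, 0.26 with plant-matched scaling and -0.50 to 0.13 without 1 library (0.05 without control 2). The cause was not tested. Depth limits the 33 members below the filter, where 1 count equals up to 0.0812 CPM.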
